A study of Rattus norvegicus with 138 samples.

Results

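The miRNAs in rat serum at 12 months after implantation of a metal were compared with those at 6 months, over 7 implanted metals given equal weight. The libraries were chosen by their labels: all samples at 6 or 12 months (mo) of rats implanted with W (tungsten), Co (cobalt), Fe (iron), Cu (copper), Al (aluminium), Pb (lead) or DU (depleted uranium). Ta (tantalum) and Ni were left out of this set. Of 138 libraries in the series, 55 met the rule and 54 were used, 27 at 6 mo and 27 at 12 mo; the library of W at 12 mo labelled replicate 3 held 3789 counts, under the minimum of 20000, and was left out. Each metal and time point had 4 libraries, except W, which had 3 at each.

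All rats were male Sprague-Dawley, operated on at 3 months of age, so serum was drawn at about 9 and about 15 months of age. Each rat carried 2 pellets per limb, 4 in all, each 1 mm across and 2 mm long, in the gastrocnemius muscle of the calf, and by the series text a group had 8 rats. Every animal carried a metal: the surgical controls received Ta, which the submitters describe as inert in muscle, and they are compared separately (3 libraries at 6 mo, 4 at 12 mo). The labels do not say which rats gave which samples, or whether a rat was sampled at both times, so a p-value here measures the spread between samples. Age, time since implantation and anything else that went with the time point, such as a sequencing run, cannot be told apart.

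miRNAs are short RNAs cut from hairpin precursors. One strand of the duplex, named 5p or 3p by its arm of the hairpin, is loaded into an Argonaute protein and pairs with messenger RNAs mainly through its seed, bases 2 to 8, lowering their translation or stability. Serum carries miRNAs in vesicles, lipoproteins and protein complexes released by blood cells, endothelium, liver and other tissues, so a serum level mixes many sources, and fewer releasing cells cannot be told from less miRNA released per cell.

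The mature sequences on which the results turn are given 5′ to 3′ with the seed in capitals, from the RefSeq miRNA table on build GRCr8, which held a sequence for 24 of the 28 miRNAs that changed. The first 3 pairs are the 2 arms of 1 hairpin each, and in each pair both arms were higher at 12 mo.
miR-22-3p: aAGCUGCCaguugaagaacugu
miR-22-5p: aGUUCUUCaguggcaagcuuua
miR-122-5p: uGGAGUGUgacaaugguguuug
miR-122-3p: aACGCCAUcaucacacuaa
miR-93-5p: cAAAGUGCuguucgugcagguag
miR-93-3p: aCUGCUGAgcuagcacuucccga

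The next are other abundant miRNAs that changed, miR-378a-3p upwards and the remaining pair downwards.
miR-378a-3p: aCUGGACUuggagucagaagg
miR-451-5p: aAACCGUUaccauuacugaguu
miR-99b-5p: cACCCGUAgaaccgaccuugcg

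The last are the miRNAs whose change differed among metals, or between the 7 metals and Ta (miR-423-5p).
miR-29b-3p: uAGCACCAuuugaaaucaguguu
miR-322-3p: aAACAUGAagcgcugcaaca
miR-126a-5p: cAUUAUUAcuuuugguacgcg
miR-503-5p: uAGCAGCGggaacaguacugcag
miR-423-5p: uGAGGGGCagagagcgagacuuuu

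Of 471 miRNAs in the table, 272 had enough counts to be tested. At an adjusted p under 0.05 (edgeR quasi-likelihood F test, Benjamini-Hochberg), 28 of them changed (10.3%): 24 rose (8.82%) and 4 fell (1.47%). At an unadjusted p under 0.05 there were 58. The 7 metals agreed in direction for 7 of the 28, 6 metals had the sign of the mean for 14, and 5 for 6. The remaining one, miR-126a-5p, followed only 2 of 7 metals. Among all 272 tested miRNAs, 21.7% agreed in 6 or 7 metals and 5.15% in all 7. These shares include 85 miRNAs whose mean change could not be estimated.

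**Figure D1:**
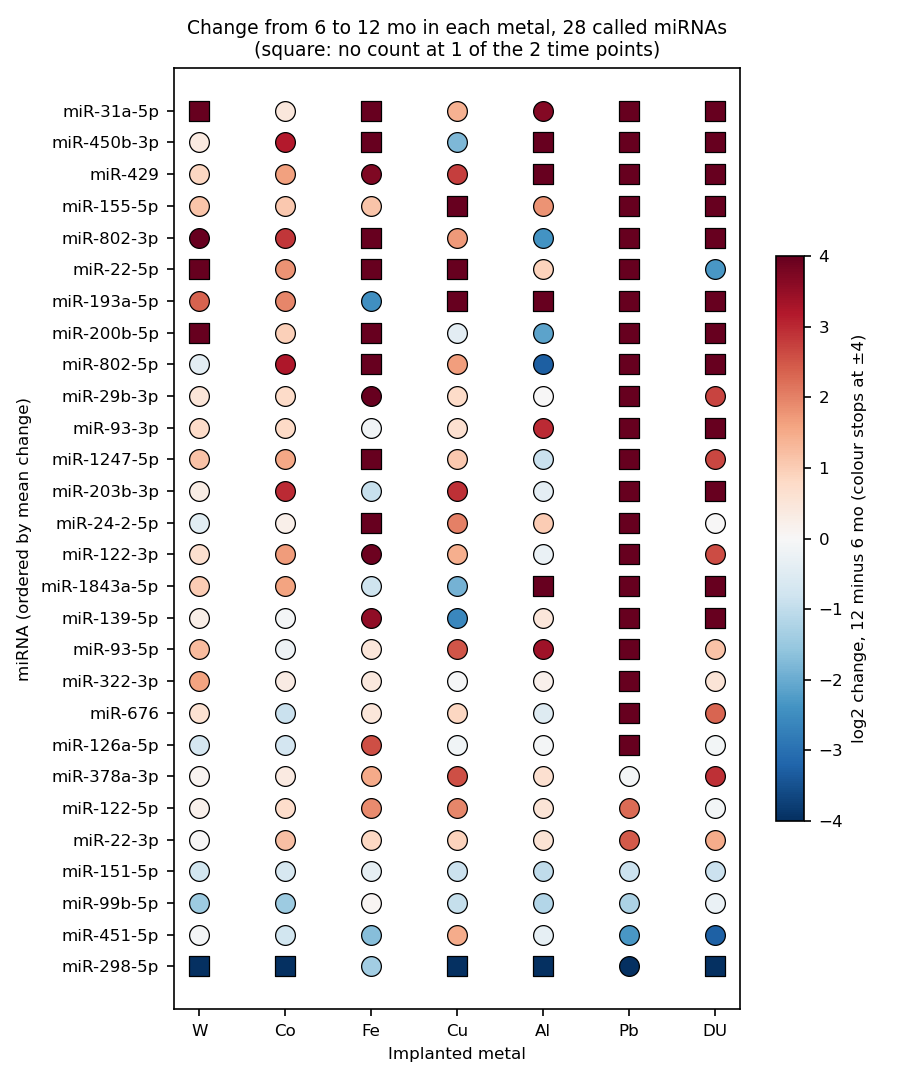
Fitted log2 change from 6 to 12 mo (colour, stopped at 4 in either direction) for each of the 28 miRNAs that changed (vertical axis) in each implanted metal (horizontal axis); squares mark metals in which all libraries of 1 time point held no count. In the Pb column 21 of the 24 miRNAs that rose are squares, while the lower part of the plot, with miR-22-3p, miR-122-5p and the miRNAs that fell, holds circles apart from miR-298-5p.

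The calls fell into 2 kinds. Only 6 of the 28 had counts in all 14 groups of metal and time point: miR-22-3p, miR-122-5p and miR-378a-3p rose, and miR-151-5p, miR-451-5p and miR-99b-5p fell. The other 22 lacked any count in at least 1 group, and for 21 of these the empty groups were at 6 mo. Over all 272 tested miRNAs the median fitted log2 change was 0.50, with 192 higher and 80 lower. Over those with counts in every group it was 0.03, with 67 higher and 58 lower. Values below are CPM, read counts scaled to a common library size by the TMM method.

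Library size and breadth moved with the time point. The library total had a median of 1361752 counts at 6 mo (range 156881 to 6406599) and 549799 at 12 mo (159861 to 2225353). It was lower at 12 mo in 6 of 7 metals (mean difference in log10 total -0.356, two-sided permutation test within metals, adjusted p = 0.0002). Yet the smaller libraries held more kinds of miRNA: a median of 159 were detected at 6 mo (70 to 246) and 191 at 12 mo (124 to 246), a mean difference of 36.1 that was positive in 6 of 7 metals (adjusted p = 0.0014), W being the exception. With every library thinned to 70000 counts the difference was 30.9, so it was present at equal depth. The 6 mo libraries of Pb stood apart with 70 to 96 miRNAs (median 88.5), and those of DU held 77 to 179 (median 120.5). Without Pb, 14 of the 28 calls were kept and 14 were lost; without Pb and DU, 6 were kept and 22 were lost (miR-22-3p, miR-22-5p, miR-29b-3p, miR-151-5p, miR-298-5p and miR-378a-3p stayed). After thinning, 17 of the 28 still had enough counts to be tested and all 17 were called, while the other 11 were not tested. Many of the values of these alternatives are given below beside the miRNA concerned.

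**Figure D2:**
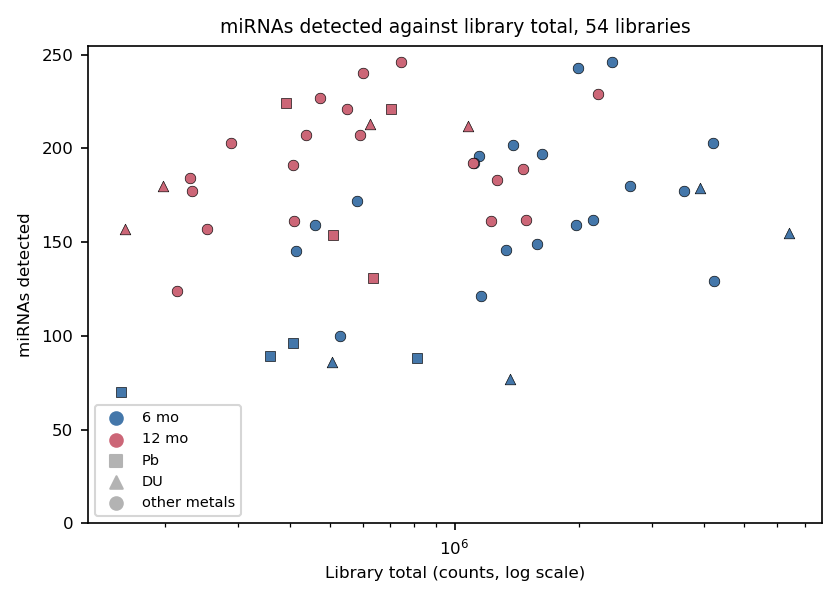
Number of miRNAs with at least 1 count (vertical axis) against library total in counts (horizontal axis, log scale) for the 54 libraries, blue for 6 mo and red for 12 mo, with squares for Pb and triangles for DU. The 4 Pb libraries at 6 mo lie between 70 and 96 miRNAs, while the 4 at 12 mo lie between 131 and 224 at overlapping totals.

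Among the miRNAs with counts everywhere, miR-22-3p, a broadly expressed miRNA that is abundant in heart and skeletal muscle, had the smallest p. It was detected in all 54 libraries and rose by 1.07 ± 0.24 on the log2 scale (SE; adjusted p = 0.00276), with the estimate above 0 in all 7 metals. Over the 27 libraries at 6 mo the lowest, median and highest levels were 1563, 13750 and 37050 CPM, and at 12 mo they were 10210, 30510 and 119900 CPM. Of the 27 libraries at 12 mo, 23 lay above the 6 mo median.

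By metal, miR-22-3p in the Co libraries was at 13750, 16630, 12320 and 19190 CPM at 6 mo and at 19880, 28960, 38150 and 56380 CPM at 12 mo. In Cu it was at 24100, 22770, 16350 and 13730 CPM at 6 mo and at 30510, 38270, 45320 and 31800 CPM at 12 mo. These were the 2 metals in which the time points did not overlap, against 6.88% of 1904 such comparisons over all tested miRNAs and metals. With 3 libraries at each time, W separates without a true difference more often than metals with 4. In Pb, miR-22-3p was at 5510, 1563, 11210 and 23280 CPM at 6 mo and at 81900, 119900, 15780 and 10990 CPM at 12 mo, so 2 of the later libraries were far above the rest and the other two within the earlier range. In W the values were 15160, 17400 and 11160 CPM at 6 mo and 13370, 19190 and 11750 CPM at 12 mo, the smallest estimate of the 7 metals (log2 0.02). The remaining metals lay between, at log2 estimates of 0.58 in Al, 0.83 in Fe and 1.48 in DU. Without Pb, miR-22-3p rose by 0.84 (adjusted p = 0.0178), and without Pb and DU by 0.71 (adjusted p = 0.0444). No removal of a single library ended its call (adjusted p 0.00031 to 0.0218).

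The other arm of the same hairpin, miR-22-5p, was detected in 4 of 27 libraries at 6 mo and 13 of 27 at 12 mo (adjusted p = 0.00556), agreeing with the mean in 6 of 7 metals. It was low throughout, at most 42.6 CPM at 6 mo and 85.6 CPM at 12 mo. In the W libraries, where miR-22-3p hardly differed, miR-22-5p had no count at 6 mo and was found in 2 of 3 libraries at 12 mo. Its W mean at 12 mo was at least 67.7-fold higher (bound from 3 counts over the 6 mo group). The call for miR-22-5p held without Pb and DU (adjusted p = 0.0444), but DESeq2 did not make it (adjusted p = 0.0694), 2 of 54 removals of a single library ended it, and after thinning the miRNA was too sparse to be tested.

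miR-122-5p, made almost only by hepatocytes and the most abundant miRNA of the liver, rose by 1.07 ± 0.34 (SE; adjusted p = 0.0294), in 6 of 7 metals. Its lowest, median and highest levels were 1387, 47330 and 354700 CPM at 6 mo and 9536, 112400 and 401200 CPM at 12 mo, and 24 of 27 libraries at 12 mo lay above the 6 mo median. Its mean share of all counts was 7.05% at 6 mo and 14.1% at 12 mo, which made it 1 of the 5 most abundant miRNAs. The time points overlapped in every metal. In Cu miR-122-5p was at 133600, 5139, 30450 and 30180 CPM at 6 mo and at 401200, 57630, 91370 and 229400 CPM at 12 mo, and in Fe at 40380, 41190, 16200 and 48290 CPM and then at 112400, 32750, 147500 and 251700 CPM. In DU, the metal with the opposite sign (log2 -0.10), it was at 36610, 21590, 55710 and 258300 CPM at 6 mo and at 9536, 96920, 60620 and 180900 CPM at 12 mo. The miR-122-5p call was lost in 20 of 54 removals of a single library (highest adjusted p 0.113, without W at 12 mo replicate 2) and was not made without Pb (adjusted p = 0.107).

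The opposite arm, miR-122-3p, was found in 14 of 27 libraries at 6 mo and 20 of 27 at 12 mo, with medians of 10.9 and 91.6 CPM (adjusted p = 0.0305, 6 of 7 metals). The call for miR-122-3p was lost without Pb (log2 1.68, adjusted p = 0.312) and in 4 of 54 removals of a single library. Among the 5 tested names of a list of liver miRNAs, these 2 rose and none fell, against 8.82% and 1.47% of all tested miRNAs. miR-192-5p, shared by liver, intestine and kidney, had an estimate of 0.64 ± 0.25 (SE; adjusted p = 0.0904) and medians of 36400 and 61980 CPM. miR-148a-3p was at 0.43 ± 0.27 (adjusted p = 0.413). miR-194-5p, transcribed together with miR-192 in these tissues, was at -0.96 ± 0.62 (adjusted p = 0.420), opposite in sign. Over the 4 members with counts in every group the median was 0.54, against 0.03 for all such miRNAs.

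miR-378a-3p, encoded in an intron of Ppargc1b and studied for its part in energy metabolism, rose by 1.16 ± 0.39 (SE; adjusted p = 0.0429), in 6 of 7 metals. Its lowest, median and highest levels were 0, 1552 and 31400 CPM at 6 mo and 547, 4959 and 28870 CPM at 12 mo. The time points did not overlap in 2 metals. In Cu, miR-378a-3p was at 2775, 1051, 887 and 620 CPM at 6 mo and at 7013, 6600, 12240 and 5948 CPM at 12 mo, and in Fe at 1814, 1161, 797 and 1552 CPM and then at 4959, 2941, 3206 and 4277 CPM. In Pb it ran from 0 to 31400 CPM at 6 mo, a span that covers all 4 later Pb libraries. Its adjusted p was 0.00497 without Pb and 0.0409 without Pb and DU, but 38 of 54 removals of a single library ended the call.

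**Figure D3:**
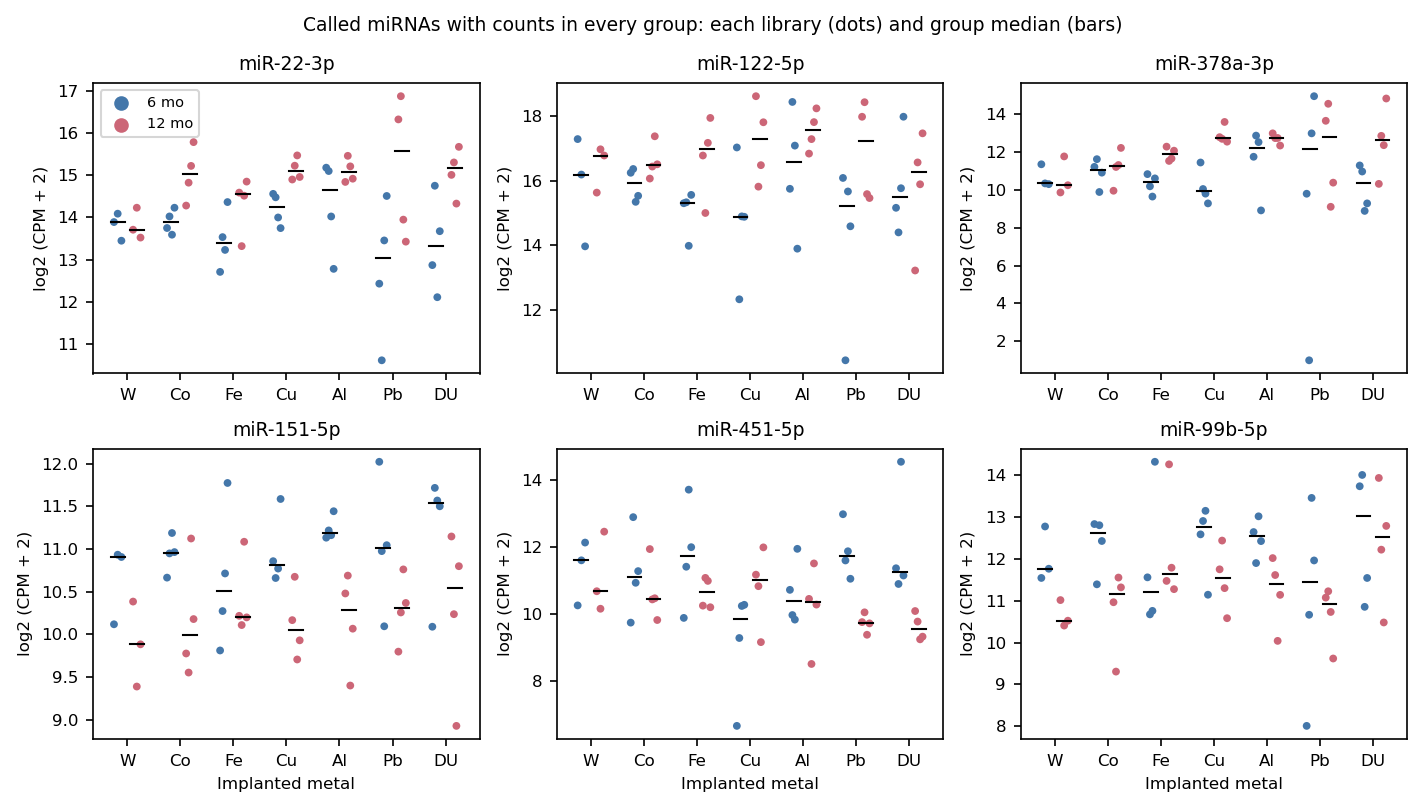
log2 (CPM + 2) in each library (dots, blue at 6 mo, red at 12 mo) with group medians (bars) for the 6 miRNAs that changed and had counts in every group, by implanted metal. The red median of miR-122-5p is above the blue one in every metal, and that of miR-22-3p in every metal but W; the red median of miR-151-5p is below the blue one in every metal.

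miR-151-5p, from an intron of the gene for focal adhesion kinase, Ptk2, fell by 0.77 on the log2 scale (SE 0.23; adjusted p = 0.0233), in all 7 metals. Its lowest, median and highest levels were 897, 1996 and 4157 CPM at 6 mo and 485, 1174 and 2266 CPM at 12 mo, and only 3 of 27 libraries at 12 mo lay above the 6 mo median. The metal estimates ran from -1.01 in Al to -0.37 in Fe. In Al, where the time points did not overlap, miR-151-5p was at 2244, 2380, 2290 and 2782 CPM at 6 mo and at 1426, 1649, 674 and 1071 CPM at 12 mo. In Fe it was at 897, 1236, 1678 and 3500 CPM at 6 mo and at 1189, 1103, 2171 and 1174 CPM at 12 mo, which overlap widely. The call held in all 54 removals of a single library and without Pb and DU (-0.73, adjusted p = 0.0497). The other arm, miR-151-3p, was not called (log2 -0.12, adjusted p = 0.9999).

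miR-451-5p, the main miRNA of red blood cells, which is processed by Ago2 rather than Dicer, fell by 1.00 on the log2 scale (SE 0.31; adjusted p = 0.0295), in 6 of 7 metals. Its lowest, median and highest levels were 98.8, 2275 and 24040 CPM at 6 mo and 362, 1217 and 5648 CPM at 12 mo. The time points did not overlap in Pb and DU. In Pb, miR-451-5p was at 8108, 3108, 3761 and 2126 CPM at 6 mo and at 864, 1059, 665 and 842 CPM at 12 mo, and in DU at 2643, 1908, 24040 and 2275 CPM and then at 1088, 874, 604 and 639 CPM. In Cu it went the other way, from 98.8, 621, 1209 and 1238 CPM to 2314, 1823, 570 and 4077 CPM (log2 1.47). The miR-451-5p call was not made without Pb (adjusted p = 0.178), or without Pb and DU (adjusted p = 0.942).

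Red cells broken during sampling release miR-451-5p together with miR-16-5p, miR-92a-3p and miR-144-3p, so these were read as a list. Of 8 tested members of this erythrocyte list 1 fell and none rose, against 1.47% and 8.82% of all tested miRNAs. miR-16-5p was at 0.57 ± 0.38 (adjusted p = 0.427), miR-92a-3p at 0.58 ± 0.32 (adjusted p = 0.293) and miR-144-3p at -0.60 ± 0.43 (adjusted p = 0.472), all as log2 differences with SE. The summed level of the list ran from 4744 to 38110 CPM at 6 mo (median 13700) and from 3747 to 29330 CPM at 12 mo (median 16870). The part of red cell RNA in the results was not tested.

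miR-99b-5p, which shares its hairpin cluster with let-7e and miR-125a, fell by 0.93 on the log2 scale (SE 0.31; adjusted p = 0.0429), in 6 of 7 metals. Its lowest, median and highest levels were 256, 5467 and 20270 CPM at 6 mo and 631, 2470 and 19430 CPM at 12 mo. In W, where the time points did not overlap, miR-99b-5p was at 2973, 6960 and 3462 CPM at 6 mo and at 2062, 1353 and 1466 CPM at 12 mo. The call was lost in 15 of 54 removals of a single library (highest adjusted p 0.0924, without Pb at 6 mo replicate 3). It was lost without Pb as well (adjusted p = 0.0680), and without Pb and DU (adjusted p = 0.0518). miR-100-5p has the same seed, ACCCGUA. It had an estimate of -0.46 ± 0.32 (SE, adjusted p = 0.441), with medians of 10080 and 6832 CPM. miR-99a-5p, of the same list of families and more abundant, was near 0 at -0.06 ± 0.31 (SE, adjusted p = 0.9999), with medians of 23860 and 25600 CPM.

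Most of the miRNAs that rose were rare at 6 mo, and here the counts of libraries with the miRNA say more than a fitted fold, which depends on a prior value where a group is empty. Of the 24 that rose, 15 were detected in fewer than 14 of the 27 libraries at 6 mo. With the tested miRNAs split by mean level into 4 bins of 68, 14 of the 24 were in the second bin from the bottom (median level 20.5 CPM) and 4 in the top bin (median 2860 CPM). For 85 of the 272 miRNAs the equal-weight change could not be estimated, because a metal had no count at either time or because metals were empty at opposite times. All 85 had a p over 0.99, so the 28 calls lie among 187.

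The miR-200 family keeps epithelial cells in their state by repressing the Zeb factors, and 1 of its members led this group. miR-429 was detected in 5 of 27 libraries at 6 mo and 20 of 27 at 12 mo (adjusted p = 0.00276, 7 of 7 metals), with at most 38.2 CPM at 6 mo and a median of 27.6 CPM at 12 mo. In Al, miR-429 had no count at 6 mo and was at 10.4, 50.3, 256 and 23.6 CPM at 12 mo, at least 217-fold higher on the mean. In Fe it was at 13.8 CPM in 1 of 4 libraries at 6 mo and at 62.0, 20.7, 46.5 and 61.0 CPM at 12 mo, again without overlap. The miR-429 call held without Pb (adjusted p = 0.0178) and was lost without Pb and DU (adjusted p = 0.0518); after thinning miR-429 was too sparse to be tested.

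miR-200b-5p, the less abundant strand of another member, was found in 6 and then 16 of 27 libraries (adjusted p = 0.00556, 5 of 7 metals). Its main strand, miR-200b-3p, was in 17 and then 25 libraries and was not called (0.43 ± 0.75 SE, adjusted p = 0.9999). miR-203b-3p was found in 7 and then 17 libraries (adjusted p = 0.0334, 5 of 7 metals). In the list of epithelial miRNAs, 2 of 11 tested members rose, miR-429 and miR-203b-3p, and none fell, against 8.82% and 1.47% of all tested miRNAs. miR-141-3p, miR-200a-3p and miR-200c-3p, the other main strands of the family, were at log2 1.19 ± 0.70, 0.58 ± 0.50 and 1.72 ± 0.84 (SE), with adjusted p from 0.214 to 0.580. miR-31a-5p, also frequent in epithelia, was found in 3 and then 14 of 27 libraries (adjusted p = 0.00276, 7 of 7 metals), with at most 25.3 CPM at 6 mo and 101 CPM at 12 mo. miR-193a-5p was found in 5 and then 17 libraries (adjusted p = 0.00289, 6 of 7 metals). Fe was its exception, at 55.3 and 102 CPM in 2 of 4 libraries at 6 mo and at 5.64 to 8.85 CPM in all 4 at 12 mo. The call for miR-203b-3p was lost without Pb (adjusted p = 0.218). Those for miR-200b-5p, miR-31a-5p and miR-193a-5p held without Pb and were lost without Pb and DU, at adjusted p of 0.230, 0.0612 and 0.0979. These 4 miRNAs were also too sparse to be tested after thinning.

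miR-155-5p, induced in activated lymphocytes and macrophages, was found in 6 of 27 libraries at 6 mo and 18 of 27 at 12 mo (adjusted p = 0.00289, 7 of 7 metals). At 6 mo it was at 21.4 and 22.8 CPM in W, 46.3 and 21.8 CPM in Co, 28.2 CPM in Fe and 37.8 CPM in Al, and had no count in Cu, Pb or DU. At 12 mo miR-155-5p was present in every metal, at 12.2 to 110 CPM where counted. All 3 W libraries at 12 mo, at 30.3, 29.6 and 37.5 CPM, lay above the 3 at 6 mo. The miR-155-5p call held without Pb (adjusted p = 0.0252) and was lost without Pb and DU (log2 2.79, adjusted p = 0.136), and after thinning it was too sparse to be tested.

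miR-155-5p was the 1 member that rose of 8 tested leukocyte miRNAs and of 5 tested inflammation-response miRNAs, and no member of either list fell, against 8.82% and 1.47% of all tested miRNAs. Other leukocyte miRNAs lay on both sides of 0: miR-223-3p, typical of neutrophils, was at log2 -0.51 ± 0.42, miR-150-5p, of mature lymphocytes, at -0.52 ± 0.39, and miR-142-5p at 0.18 ± 0.25 (SE; adjusted p 0.520 to 0.958). miR-146a-5p, a feedback regulator of NF-κB signalling, was at -0.37 ± 0.30 (adjusted p = 0.557), and miR-21-5p, often raised in fibrosis and tumours, at 0.29 ± 0.23 (adjusted p = 0.541). miR-181b-5p was higher in all 7 metals without passing the threshold (1.41 ± 0.57 SE, adjusted p = 0.0988), though DESeq2 (adjusted p = 0.0144) and thinning (0.0285) called it.

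Both arms of miR-802, a miRNA of liver and pancreas, rose: miR-802-3p was found in 6 and then 13 of 27 libraries (adjusted p = 0.00556, 6 of 7 metals) and miR-802-5p in 9 and then 15 (adjusted p = 0.00606, 5 of 7 metals). Al was an exception for both, at log2 -2.40 and -3.30. Both were lost without Pb and DU (miR-802-3p at adjusted p = 0.230, miR-802-5p at 0.340) and were too sparse to be tested after thinning. The 2 arms of miR-93 rose as well. miR-93-5p went from 14 to 24 of 27 libraries and from a median of 12.1 to 97.0 CPM (adjusted p = 0.0233, 6 of 7 metals). In W, Cu and Al its time points did not overlap, against 6.88% of such comparisons over all tested miRNAs and metals. miR-93-3p was found in 8 and then 18 libraries (adjusted p = 0.0174, 6 of 7 metals). Without Pb neither arm of miR-93 was called (miR-93-5p at adjusted p = 0.341, miR-93-3p at 0.178). With miR-22 and miR-122 this made 4 hairpins with both arms called, of 67 with both arms tested, while 8 had 1 arm called; without Pb, the pairs of miR-122 and miR-93 were no longer among them.

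miR-93-5p lies in the miR-106b/25 cluster in an intron of the replication gene Mcm7 and shares the seed AAAGUGC, which represses cell-cycle inhibitors, with 3 other tested miRNAs. miR-20a-5p, of the miR-17/92 cluster, was higher in 7 of 7 metals at 1.21 ± 0.49 (SE; adjusted p = 0.101), and DESeq2 (adjusted p = 0.0248), thinning (0.0191) and the replicate block (0.0204) called miR-20a-5p. miR-17-5p was at 0.40 ± 0.76 (adjusted p = 0.9999), and miR-106b-5p was found in only 5 and then 7 libraries. Of 9 tested members of the miR-17/92 clusters list, miR-93-5p rose and none fell, against 8.82% and 1.47% of all tested miRNAs. The seed in capitals is the one printed above for miR-93-5p.
miR-20a-5p: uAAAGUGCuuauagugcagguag
miR-17-5p: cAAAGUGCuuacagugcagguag

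Of the other miRNAs that rose, miR-1247-5p was in 12 and then 23 of 27 libraries, miR-139-5p in 12 and then 21, miR-676 in 19 and then 26 and miR-24-2-5p in 10 and then 19. miR-450b-3p, from the X-linked cluster that also holds miR-322 and miR-503, was in 3 and then 10 libraries, and miR-1843a-5p in 7 and then 15. Their adjusted p ran from 0.00556 to 0.0315, and 5 or 6 of 7 metals agreed for each. All but miR-450b-3p lost their call without Pb, with adjusted p of 0.0680 for miR-1247-5p, 0.248 for miR-139-5p, 0.946 for miR-676, 0.216 for miR-24-2-5p and 0.140 for miR-1843a-5p. miR-450b-3p lost it without Pb and DU (adjusted p = 0.136). The summed counts of miR-450b-3p per group were all multiples of 4, such as 16 in Cu at 12 mo. The low-count filter, also after thinning, may thus have been passed on fewer reads than the counts show. Removing a single library ended the call in 6 of 54 cases for miR-24-2-5p, 7 for miR-1843a-5p and 4 for miR-450b-3p. The only rare miRNA that fell, miR-298-5p, was in 7 of 27 libraries at 6 mo, 1 in each metal, and in 2 of 27 at 12 mo (adjusted p = 0.00556). Its highest value, 273 CPM, was in 1 Pb library at 6 mo, and the other 6 were at 22.8 to 58.5 CPM. The fall rests on 9 libraries with counts, and 7 of 54 removals of a single library ended the miR-298-5p call. DESeq2 gave no adjusted p for miR-298-5p. After thinning, miR-298-5p and miR-1843a-5p were too sparse to be tested, so the fall of miR-298-5p was not tested at equal depth.

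The change differed among the 7 metals for 4 of 272 miRNAs (1.47%; edgeR F test that the 7 metal changes are equal, adjusted p under 0.05), with 60 at an unadjusted p under 0.05. These were miR-322-3p (adjusted p = 9.63e-06), miR-29b-3p (0.00565), miR-126a-5p (0.00565) and miR-503-5p (0.00674). For the first 3 of these, all 4 Pb libraries at 6 mo had no count.

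miR-322-3p is the second strand of the rodent counterpart of human miR-424, from a cluster linked to muscle differentiation and cell-cycle exit. It had the smallest p in the comparison of the time points (adjusted p = 2.27e-05) and was found in 22 and then 27 of 27 libraries. In Pb, miR-322-3p had no count in 4 of 4 libraries at 6 mo and was at 5040, 2865, 3772 and 1079 CPM at 12 mo. In W it was at 944, 638 and 1113 CPM at 6 mo and at 4383, 2505 and 1320 CPM at 12 mo (log2 1.61), without overlap. In Cu it was at 1379, 3320, 2742 and 1206 CPM and then at 1681, 5530, 430 and 747 CPM (log2 -0.04). In Co, Fe, Al and DU the estimates were 0.19 to 0.54, and in these and Cu the time points overlapped. Without Pb the estimate was 0.50 and was not called (adjusted p = 0.650), and the test among metals no longer called miR-322-3p. The summed counts of miR-322-3p per group, like those of miR-503-5p, were all multiples of 4. A read may thus have added several counts, so no lower bound on the fold is given. The reason was not tested.

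miR-29b-3p represses collagens and other matrix genes. It was detected in 18 and then 26 of 27 libraries, from a median of 129 to 710 CPM (adjusted p = 5.67e-05), with an estimate above 0 in all 7 metals. In Pb, miR-29b-3p had no count at 6 mo and was at 646, 1405, 711 and 283 CPM at 12 mo. Fe was alike, at 0, 0, 0 and 26.4 CPM at 6 mo and at 282, 1534, 1247 and 642 CPM at 12 mo. In DU it was at 494, 12.1, 0 and 0 CPM and then at 1057, 1090, 710 and 431 CPM. These 3 metals had 9 of their 12 libraries at 0 at 6 mo and none at 12 mo. The summed counts of miR-29b-3p per group, such as 20 in Fe at 6 mo and 605 in Al at 12 mo, all shared a divisor above 1. A read may thus have added several counts here too, so no lower bound on the fold is given. The reason was not tested.

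In the remaining metals miR-29b-3p was present at both times and its estimates were smaller. In Al it was at 657, 382, 129 and 1016 CPM at 6 mo and at 1275, 743, 0 and 197 CPM at 12 mo (log2 0.02), and in Cu at 511, 616, 701 and 183 CPM and then at 721, 859, 161 and 1661 CPM (0.76). In Co it was at 315, 593, 315 and 311 CPM and then at 792, 142, 1042 and 652 CPM (0.78), and in W at 115, 27.1 and 707 CPM and then at 601, 167 and 433 CPM (0.50). The time points overlapped in each of these 4 metals. The rise in the mean was called without Pb (1.98, adjusted p = 0.0276) and without Pb and DU (1.84, adjusted p = 0.0444), and in all 54 removals of a single library. The relatives with the same seed, AGCACCA, were not called: miR-29a-3p was at 0.50 ± 0.33 (SE; adjusted p = 0.427) with medians of 3039 and 3741 CPM, and miR-29c-3p at 1.21 ± 0.62 (adjusted p = 0.256). miR-29b-3p and miR-29c-3p differ at 3 positions over their shared length, and how reads matching both were assigned is not given in the sources used here. Its relatives read as follows.
miR-29c-3p: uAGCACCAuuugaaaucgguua
miR-29a-3p: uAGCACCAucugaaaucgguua

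miR-126a-5p comes from an intron of Egfl7 and is made by endothelium, with its partner strand in platelets too. It was found in 22 and then 27 of 27 libraries (adjusted p = 0.0115), yet only Pb and Fe had estimates above 0. In Pb, miR-126a-5p had no count at 6 mo and was at 288, 150, 219 and 256 CPM at 12 mo, at least 201-fold higher on the mean. In Fe it was at 229, 38.7, 4.86 and 22.4 CPM and then at 304, 1174, 210 and 89.8 CPM. In W it was lower without overlap, at 199, 194 and 186 CPM and then at 114, 119 and 127 CPM. Co, Cu, Al and DU, like W, had estimates below 0 (-0.75 to -0.09 in these 4), and without Pb miR-126a-5p was not called (log2 0.14, adjusted p = 1). The opposite arm, miR-126a-3p, was found in 25 and then 27 libraries, with medians of 829 and 1075 CPM (log2 0.16 ± 0.39 SE, adjusted p = 0.9999).

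miR-503-5p, a relative of miR-16 transcribed with miR-322, had no estimable mean change, since different metals were empty at opposite times. Without Al the mean could be estimated and was called (log2 3.03, adjusted p = 0.0178), with Fe and DU empty at 6 mo. Among the other metals the group mean was higher at 12 mo only in Co (43.1 and 209 CPM). It was lower in Cu (337.5 and 129.5 CPM), Pb (307.5 and 83.5 CPM) and W (114.6 and 79.5 CPM), so 3.03 is not a rise shared by the metals. In Al, miR-503-5p was at 391, 0, 66.6 and 1068 CPM at 6 mo and had no count in 4 libraries at 12 mo. In Fe it had no count at 6 mo and was at 67.6, 0, 68.5 and 513 CPM at 12 mo, and in DU it had none and then 312, 70.2, 0 and 0 CPM. In Pb, miR-503-5p was at 1230 CPM in 1 library and 0 in 3 at 6 mo, and at 43.1, 206, 52.1 and 33.0 CPM at 12 mo. It was the only miRNA that differed among metals without Pb (adjusted p = 0.00761) and without Pb and DU (adjusted p = 0.0422).

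**Figure D4:**
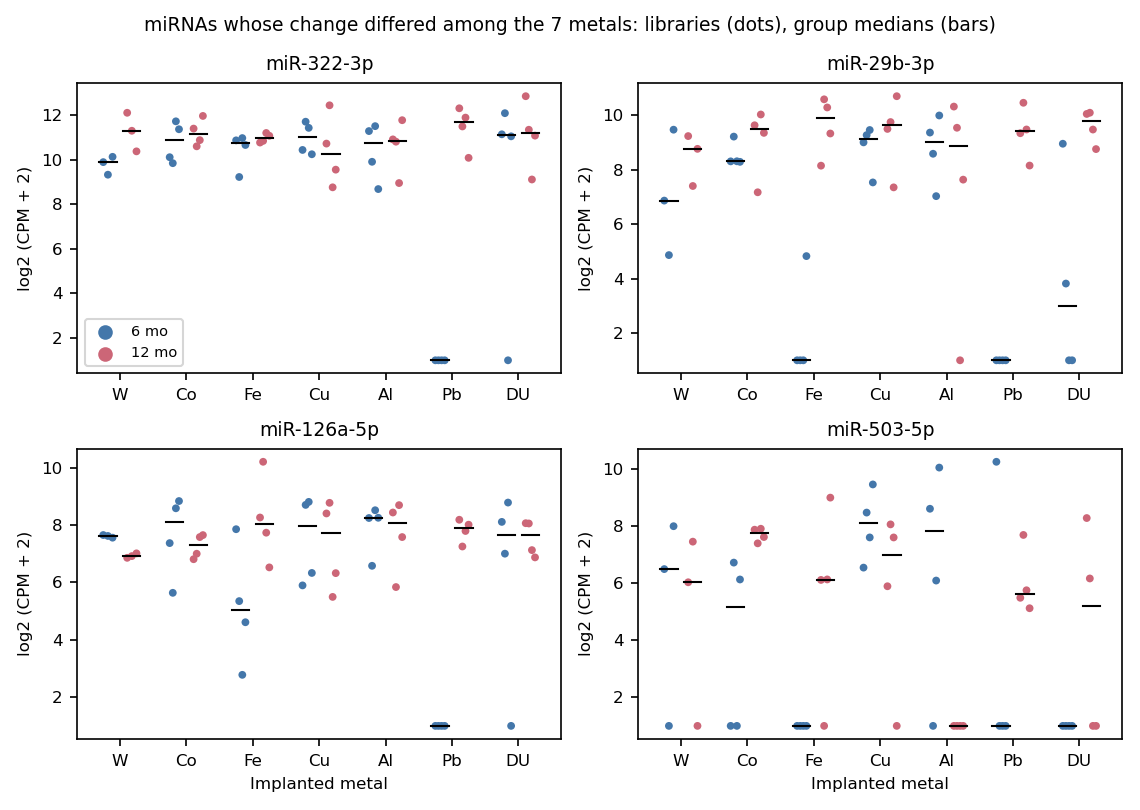
log2 (CPM + 2) in each library (dots, blue at 6 mo, red at 12 mo) with group medians (bars) for the 4 miRNAs whose change differed among the implanted metals; the lowest dots, at 1 on this axis, are libraries with no count. The blue dots of Pb lie at that floor for miR-322-3p, miR-29b-3p and miR-126a-5p.

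In the tantalum controls, 3 of 284 tested miRNAs changed from 6 to 12 mo (1.06%), all downwards, with 33 at an unadjusted p under 0.05. miR-423-5p, which has been used as a reference miRNA in serum, was at 12710, 35080 and 7160 CPM at 6 mo and at 2511, 507, 1023 and 2555 CPM at 12 mo. It fell by 3.47 on the log2 scale (SE 0.73; adjusted p = 0.00364), without overlap. Averaged over the 7 metals the estimate for miR-423-5p was near 0. The lowest, median and highest levels of miR-423-5p there were 774, 4673 and 11540 CPM at 6 mo and 944, 4604 and 22400 CPM at 12 mo (log2 -0.07 ± 0.25 SE, adjusted p = 0.9998). The metals went both ways. In the fit without Ta, group means went from 5170 to 1620 CPM in Co, without overlap, and from 3678 to 1420 CPM in W. They went from 5126 to 11150 CPM in Cu, 4920 to 8360 CPM in DU and 3525 to 6415 CPM in Fe. Means in Al (8614 and 8656 CPM) and Pb (5573 and 5001 CPM) were alike at both times. The test among metals did not call miR-423-5p.

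The change of miR-423-5p in the 7 metals minus that in Ta was 3.41 ± 0.77 (SE; adjusted p = 0.0101), the only 1 of 284 such differences called (0.352%; 23 at an unadjusted p under 0.05). Ta had 3 libraries at 6 mo, and the miR-423-5p difference was lost in 7 of 61 removals of a single library, with the highest adjusted p, 0.336, without Ta at 6 mo replicate 2. It was lost as well without Ta at 12 mo replicate 2 or 3, and without Co at 6 mo replicate 3 or 4, Cu at 12 mo replicate 2 or Pb at 12 mo replicate 1. The replicate block did not call it.

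miR-191a-5p, the most abundant miRNA in these sera at a mean share of 16.4% of counts, was at 437800, 486200 and 126700 CPM in Ta at 6 mo and at 34090, 33100, 13200 and 15940 CPM at 12 mo. It fell there by 3.86 on the log2 scale (SE 1.01; adjusted p = 0.0281). In the 7 metals its medians were 165000 and 111300 CPM (log2 -0.14 ± 0.34 SE). The difference in the miR-191a-5p change, 3.72 ± 1.05, did not pass the threshold (adjusted p = 0.0910). It was called with library totals (3.28, adjusted p = 0.0277), without the filter, with DESeq2 (3.33, adjusted p = 0.00447) and with the replicate block (3.61, adjusted p = 0.00620).

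miR-151-5p, which fell in the 7 metals, fell in Ta as well, from 3968, 2652 and 1987 CPM to 331, 278, 620 and 799 CPM (log2 -2.50, SE 0.65; adjusted p = 0.0281). The miR-151-5p changes in the 7 metals and Ta differed by 1.73 ± 0.67 (SE), which was not called (adjusted p = 0.255). In the Ta libraries the calls for miR-423-5p, miR-191a-5p and miR-151-5p were lost in 3, 14 and 35 of 61 removals. None of the 24 miRNAs that rose over the 7 metals was called in Ta or in the difference from Ta by edgeR with the low-count filter, so these data do not show that the rises were absent in Ta. DESeq2 called the difference from Ta for 3 of them, miR-29b-3p (4.86, adjusted p = 0.00504), miR-24-2-5p (adjusted p = 0.0302) and miR-450b-3p (adjusted p = 1.01e-06), and edgeR without the filter called miR-450b-3p (adjusted p = 0.0484).

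**Figure D5:**
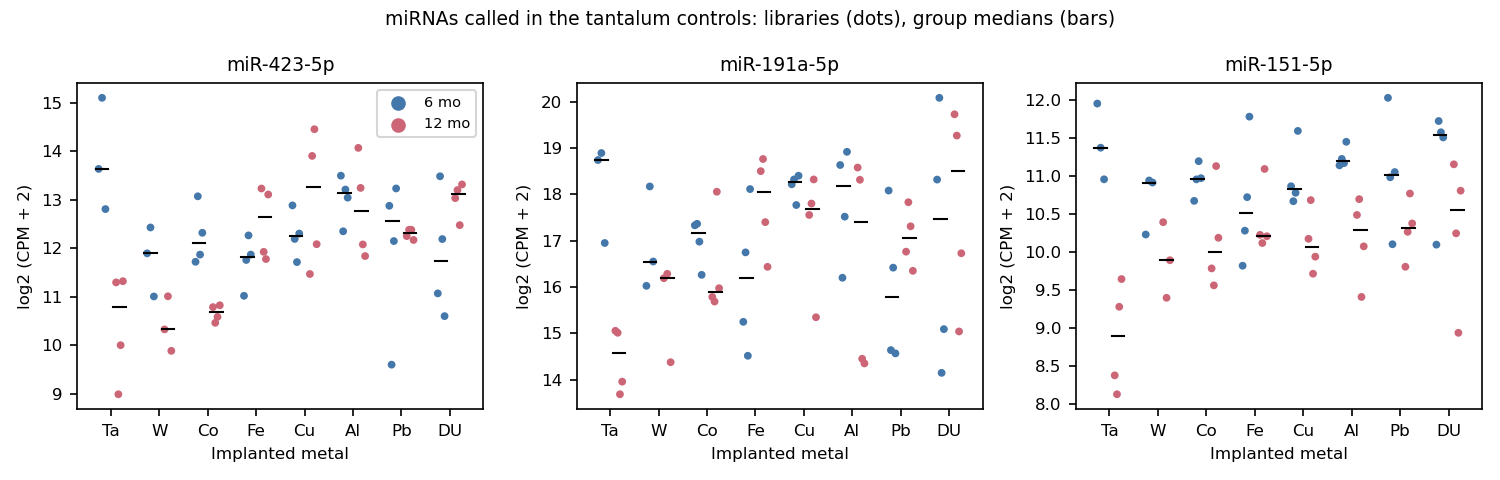
log2 (CPM + 2) in each library (dots, blue at 6 mo, red at 12 mo) with group medians (bars) for the 3 miRNAs that fell in Ta, by implanted metal. The red dots of Ta lie below its blue dots in all 3 panels; in the 7 metals only miR-151-5p has the red median below the blue one throughout.

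Skeletal muscle carried the pellets. Of the 8 names of a muscle list, 5 were tested and none was called, against 10.3% of all tested miRNAs. Among these, miR-133b-3p and miR-499-5p had no estimable mean change and could not be called. miR-1-3p, the main miRNA of heart and skeletal muscle, was found in 21 and then 26 of 27 libraries with medians of 394 and 140 CPM (log2 -1.01 ± 0.68 SE, adjusted p = 0.427). Without Pb at 6 mo replicate 3, the only Pb library at 6 mo with a count of miR-1-3p, the fitted value was 0.75. That value depends on an empty group. miR-206-3p, of regenerating muscle, had medians of 883 and 629 CPM (-0.12 ± 0.48, adjusted p = 0.9999). miR-133a-3p was in 14 libraries at each time, with medians of 10.6 and 11.3 CPM (-1.73 ± 0.94, adjusted p = 0.292), but DESeq2 called miR-133a-3p lower (adjusted p = 0.00492). In Pb, miR-133a-3p had a count in 1 library at 6 mo (677 CPM) and in none at 12 mo. Without that library Pb holds no count of miR-133a-3p, so the mean change cannot be estimated. The summed muscle level ran from 0 to 17680 CPM at 6 mo (median 1430) and from 57.3 to 22670 CPM at 12 mo (median 836).

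The other lists were written with earlier results of these data known, and their counts stand against 8.82% higher and 1.47% lower of all tested miRNAs. 1 member rose of 6 platelet (miR-126a-5p), of 9 fibroblast and smooth muscle (miR-29b-3p) and of 8 miRNAs of the X-linked clusters around miR-322 (miR-322-3p). The X-linked list did not hold the 2 arms of miR-450b, of which miR-450b-3p rose. Of 7 tested members of the miR-10 and miR-99 families 1 fell, miR-99b-5p. Among these, miR-10a-5p and miR-10b-5p, at mean shares of 14.3% and 5.59% of counts, were at log2 -0.48 ± 0.34 and -0.53 ± 0.30 (SE; adjusted p = 0.469 and 0.307). No member was called of 9 let-7, 6 miR-30, 5 brain, 4 pancreas and endocrine, 3 p53-target, 2 Dlk1-Dio3 cluster and 1 hypoxia miRNA tested. In all lists, members without an estimable mean change count as tested, although they could not be called. These include all 3 p53-target miRNAs and the 1 hypoxia miRNA, so these 2 lists show nothing. In the brain and Dlk1-Dio3 lists only miR-128-3p and miR-127-3p could be estimated, and miR-217-5p of the pancreas list could not. In the let-7 family 4 estimates were above 0 and 5 below, with a median of -0.12. let-7g-5p had an estimate of -0.76 ± 0.27 (SE; adjusted p = 0.0582) and was called lower with RLE factors (adjusted p = 0.0318), library totals (0.0263), DESeq2 (0.00816), thinning (0.0285) and without Pb (0.0266). miR-30e-5p, at -0.71 ± 0.28 (adjusted p = 0.0978), was called lower with RLE factors (0.0409), library totals (0.0298) and DESeq2 (0.00271). miR-375-3p, of pancreatic islets, was higher in 7 of 7 metals without passing (0.79 ± 0.44 SE, adjusted p = 0.313). Over members with counts in every group, the median log2 difference was -0.16 for 6 erythrocyte, -0.37 for 7 leukocyte, 0.23 for 6 epithelial, 0.21 for 7 fibroblast and smooth muscle, -0.21 for 6 miR-30 and -0.46 for 7 miR-10 and miR-99 family miRNAs, against 0.03 for all tested miRNAs with counts in every group.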

How the data were processed

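Small RNA was sequenced from rat serum, with RNA checked on a Bioanalyzer, Norgen small RNA libraries and a NextSeq instrument, per the labels' protocols. The authors deposited raw counts of reads per mature miRNA for 138 libraries, and each column matched 1 sample by its title. The rat assembly was Rnor_6.0, per the submitters' processing notes; no source used here names the aligner, the counter or the miRBase release. Counts were analysed in R 4.3.3 with edgeR 4.0.16 and limma 3.58.1: filterByExpr (minimum count 10, minimum total 15), TMM factors, and quasi-likelihood fits with 1 mean per metal and time point. The contrast was the mean over 7 metals of 12 mo minus 6 mo. The Ta comparison and its difference from the metals used a fit that also held the 7 Ta libraries. Adjusted p-values are Benjamini-Hochberg over all miRNAs tested. Library totals and miRNAs detected were tested by 100000 permutations of time within each metal. CPM are the counts scaled with edgeR's cpm function to TMM-adjusted library sizes; bounds use 3 counts over an empty group and cover counting error only, and plots add 2 to the CPM. Scripts were tested on simulated counts.

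No samples within a group were repeats of 1 library: over 87 pairs the lowest chi-square per degree of freedom was 134. Alternatives were RLE factors, library totals, other filters, DESeq2 1.42.0, the small library kept, thinning, a replicate block, other sets of libraries, an additive model, and leaving out each metal or library. Removing Pb and DU together was chosen after seeing the data. The comparison, the lists and the miRNAs to name were chosen with earlier results of these data known. Named were the 12 smallest p among risers and among fallers, the 5 most abundant, the 3 smallest p of each other comparison, a fixed set of tissue and inflammation miRNAs, and members of described lists; other miRNAs that changed are named as well, since they were few. Of the fixed set, miR-34a-5p and miR-210-3p did not pass the filter; miR-486 was not analysed here.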

Additional observations from a re-analysis of the deposited data

Results flagged for a closer look

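The change from 6 to 12 mo differed among the 7 metals, by an F test of the metal changes, for miR-322-3p (adjusted p = 9.63e-06), miR-29b-3p (0.00565), miR-126a-5p (0.00565) and miR-503-5p (0.00674). All 4 kept an adjusted p under 0.05 in each of 54 removals of a single library, with a highest value of 0.0232. Without Pb, the only one of them called was miR-503-5p (adjusted p = 0.00761). The change of miR-423-5p differed between the 7 metals and Ta (adjusted p = 0.0101), and this call was lost in 7 of 61 removals.

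In groups of 4 libraries, the most extreme value was also set against the gap to its nearest neighbour, in 24 checks of library totals and miRNAs detected and 48 checks of CPM. There were 8 values far from the rest of their group. Chance gives about 1 in 20 groups when values are normally distributed. This rate cannot be applied to the CPM checks, because many libraries had no count. A group with a count in only 1 library is always flagged, and a group without any count never is. For Al at 12 mo 1 library total of 589967 counts lay above a median of 241011. miR-29b-3p stood apart in 1 library each of Co at 6 mo (593 CPM), Fe at 6 mo (26.4 CPM) and DU at 6 mo (494 CPM). miR-126a-5p did so in Fe at 6 mo (229 CPM). miR-503-5p did so in Fe at 12 mo (513 CPM), Pb at 12 mo (206 CPM) and Pb at 6 mo (1230 CPM).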

How the results depend on the processing

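Against 28 calls (24 up, 4 down), DESeq2 made 72 (60 up, 12 down), a filter requiring counts in most libraries 15, removal of W 45, and removal of Pb and DU, chosen after seeing the data, 11 (6 up, 5 down), of which 6 were among the 28. Removing 1 library gave 18 to 35, the lowest without W at 12 mo replicate 2. RLE factors, library totals, no filter, the small library kept, thinning to 70000 counts, Ta or all libraries in the fit, the additive model and removal of Co, Fe, Cu, Al, Pb or DU gave 19 to 33; thinning gave 24, with all 17 of the 28 that could still be tested, and the additive model 19, with 8 of the 28. miR-22-3p was called in all 12 settings and all 7 removals of a metal, and miR-29b-3p in 11 of 12 settings and all 7 removals. The replicate block, which treats equal numbers within a metal as pairs, gave 7 calls, 4 of them among the 28. The labels do not say whether equal numbers are the same rat. Over 26 same-numbered pairs the correlation of deviations ran from -0.198 to 0.186, 3 exceeded 0.1, and 5 of 26 libraries matched best with their own number. Such weak correlations cannot tell whether the same rats were sampled at both times.

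Differences among metals numbered 4, but 9 without the filter, 11 with DESeq2, 9 after thinning, 1 without Pb, 1 without Pb and DU, and 4 to 8 without 1 library. In Ta there were 3 calls, 26 with DESeq2, 1 with the replicate block and 0 to 3 without 1 library. The difference from Ta gave 1 call, 3 with library totals, 3 without the filter, 25 with DESeq2, 2 with the replicate block and 0 to 3 without 1 library. The direction of some named miRNAs that were not called changed. miR-146a-5p was at 0.16 with the small library kept. With the block, miR-1-3p was at 0.065 and miR-191a-5p at 0.014, and in the additive model miR-423-5p was at 0.0063. Without W, miR-191a-5p, miR-206-3p and miR-423-5p were at 0.12, 0.20 and 0.24; without Co, miR-423-5p was at 0.21; without Cu, miR-191a-5p was at 0.04. Without Fe, miR-206-3p was at 0.47, and without DU at 0.04. Without Pb and DU, miR-133a-3p, miR-140-3p and miR-223-3p were at 0.45, -0.028 and 0.24. Over removals of 1 library or metal, miR-1-3p ran from -1.49 to 0.75, miR-191a-5p from -0.36 to 0.12, miR-206-3p from -0.57 to 0.47 and miR-423-5p from -0.31 to 0.24. The value of 0.75 for miR-1-3p depends on an empty group, since it left out the only Pb library at 6 mo with a count. Removing 1 library took miR-191a-5p to 0.016 and miR-206-3p to 0.0027. The cause of these changes was not tested. The mean change of miR-503-5p could, among these removals, be estimated only without Al (3.03, called, with Fe and DU empty at 6 mo). Its fitted values of -0.64 without Fe, -0.55 without DU and -0.17 without Pb and DU thus carry no direction.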
